A study of Arabidopsis thaliana with 8 samples.

Results

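The 71 chromosome 5 loci that lie around NAA50 in locus number were compared between rosette leaves labelled NAA50-depleted and those of wild type Arabidopsis thaliana. They are all measured loci from AT5G11000 to AT5G11690, out of 27826 loci on the arrays, with NAA50 itself (AT5G11340) and the light-signalling gene HY5 (AT5G11260) left out. They were chosen by position, 33 numbered below NAA50 and 38 above it, with earlier results of these data known. The gene table matched 70 of them and gave a symbol to 28.

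The group labelled NAA50-depleted comprised 4 arrays of a mutant that is described by its titles as having a lowered steady-state level of NAA50, and its line is written animaa50 in the labels. The wild type group comprised 4 arrays of Col-0. All plants had grown for 7 weeks on soil in short days, and leaves were taken 2 h after the lights came on. How the depletion was brought about, whether the line is a single transformant and whether each array had its own plants are not stated in the labels.

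N-terminal acetyltransferases attach an acetyl group to the first residue of proteins as these leave the ribosome, and NAA50 is one of them. Genes that lie next to each other on a plant chromosome can share promoter DNA, chromatin state or overlapping transcripts, and they can equally be transcribed independently of each other. The neighbours of NAA50 have no common function. They include transcription factors, helicases of messenger RNA export, channels, metabolic enzymes and many loci that the gene table does not name.

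Expression is given here as the deposited RMA value on the log2 scale, on which a difference of 1 is a 2-fold difference. The median of every array was 2.73 and the lowest value 0.69, so a locus below the median had little room to fall. Levels of different loci come from different probes and are not compared per length. Correlations between arrays over the 71 members were 0.985 to 0.992 within groups and 0.948 to 0.977 between groups. The leaf mesophyll markers RBCS1A, CAB1, RCA and CA1 had means of 10.81 to 13.32 over the 8 arrays and did not pass the threshold, whereas all 3 root markers and both flower markers lay below the array median. Of 6 epidermis and cuticle markers, CER1 (-1.89 ± 0.32, SE) and LTP1 (-0.84 ± 0.12) were lower and CER3 (0.75 ± 0.16) was higher on the arrays labelled NAA50-depleted. The mean of those 6 was 6.62 to 7.10 on these arrays and 7.18 to 7.56 on the wild type arrays. Their part in the results below was not tested, and in whole leaves a change in cell numbers and a change in RNA per cell cannot be told apart.

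NAA50 was measured first as the targeted gene. Its values were 10.43, 10.52, 10.24 and 10.33 on the arrays labelled NAA50-depleted and 4.71, 4.54, 4.23 and 4.75 on the wild type arrays. The measured transcript was thus 56.7-fold higher (95% interval of the log2 difference 5.52 to 6.13) in the group whose label names a depletion. Whether the labels of the groups are exchanged, whether the label refers to the protein or whether the probes read another transcript was not tested, and an exchange would turn every direction below. Every direction is that of the arrays so labelled relative to those labelled wild type. HY5 did not pass the threshold, at 0.15 ± 0.11 (SE, n = 4 arrays per group, adjusted p = 0.471 in limma).

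Among the neighbours, 11 of 71 passed the threshold, an adjusted p under 0.05 in limma. This is 15.5% of them, and 14.5% of all 27826 loci passed the same threshold. Of the 11, AT5G11070, AT5G11650, AT5G11250, AT5G11000, AT5G11350, NOXY2 and AT5G11090 were higher, and AT5G11590 (TINY2), AT5G11420, AT5G11550 and TIM17-3 were lower. The 7 higher members are 9.86% and the 4 lower members 5.63%, where 6.95% of all loci were higher and 7.58% lower. At 7 of the 11 the difference was at least 2-fold, which is 9.86% of the members, with 4.77% of all loci past that size. The 5 higher ones among them are 7.04% of the members and the 2 lower ones 2.82%, with 3.19% and 1.57% of all loci. The count at that size was 4 without wild type replicate 1. There AT5G11000 (0.99), AT5G11250 (0.94) and AT5G11350 (0.97) fell just below 2-fold but stayed called. The share of all loci at that size is not given here without that array. The median member differed by -0.05 and the median of all loci by -0.03. The members' differences spanned -1.63 to 1.59, and NAA50 lay far outside this range.

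**Figure D1:**
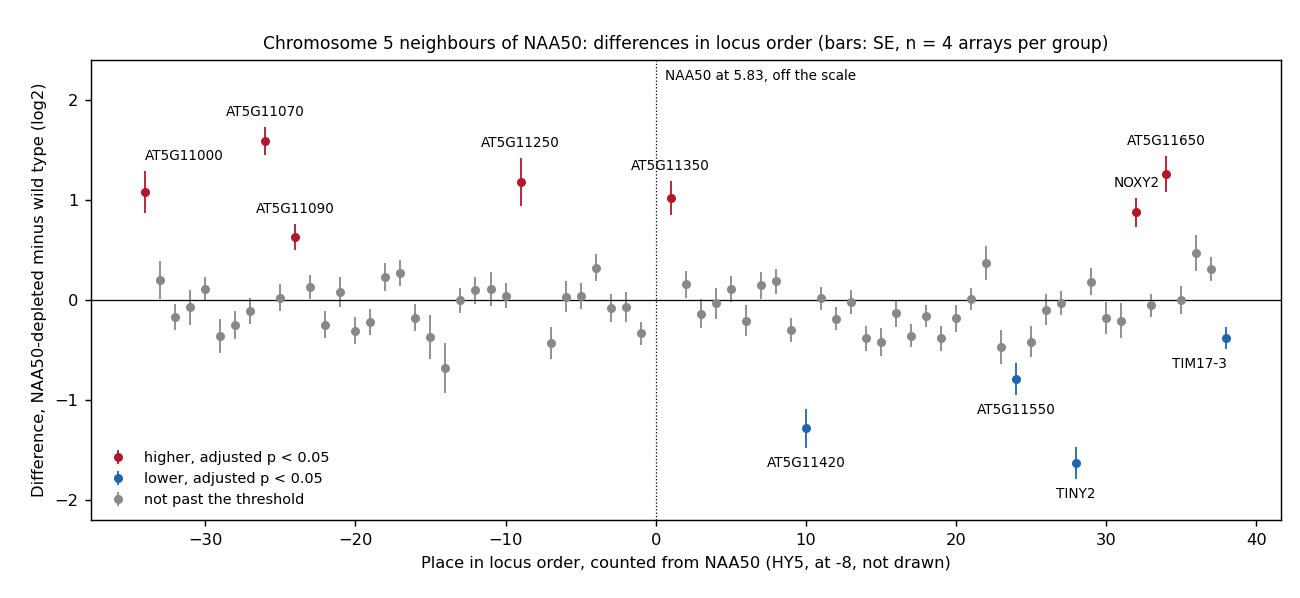
Difference between the arrays labelled NAA50-depleted and the wild type arrays (log2, vertical axis) for the 71 neighbours in locus order (horizontal axis, places counted from NAA50), with SE bars and n = 4 arrays per group. The 7 higher (red) and 4 lower (blue) members are scattered among members that did not pass the threshold (grey), and no 2 of the 11 stand next to each other.

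The called members did not sit side by side. Between any of them and the next at least 1 member did not pass the threshold, so 0 pairs of called members were adjacent. Adjacent called pairs were not counted on the rest of the chromosome, so whether this differs from elsewhere is not known. Each of the first 4 sets of 10 members in locus order, from AT5G11000 to AT5G11410, held 1 or 2 higher members and 0 lower ones. The fifth and sixth sets, from AT5G11412 to AT5G11580, held 0 higher members and 1 lower member each, and the seventh, from AT5G11590 to AT5G11680, held 2 higher and 1 lower. TIM17-3, the last member, was lower. Of all loci 6.95% were higher and 7.58% lower, and sets of 10 were not counted elsewhere on the chromosome. These small counts are a description and carry no test. Differences of adjacent members had the same sign in 39 of 70 pairs (55.7%), against 54.1% of 6289 adjacent pairs on the rest of chromosome 5. The Pearson correlation between the differences of adjacent loci was 0.04 over the members and 0.12 over the rest of the chromosome. The Spearman correlation was 0.12 over the members and 0.09 over the rest, so which was larger depended on the measure. These are a description of loci that were measured on the same 8 arrays.

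The members nearest to NAA50 differed from each other. AT5G11350, the next locus after NAA50, had values of 5.83, 6.45, 6.48 and 5.84 on the arrays labelled NAA50-depleted and of 4.99, 5.08, 5.18 and 5.28 on the wild type arrays. Every value of the labelled-depleted group lay above every wild type value, and replicates 2 and 3 of that group were the higher pair. The difference was 1.02 ± 0.17 (SE, n = 4 arrays per group), a 2.03-fold increase with an adjusted p of 0.00205 in limma. In the gene table the models of NAA50 and AT5G11350 overlap at their ends. The sources used here do not say where the probes of either locus lie, and how far signal is shared between them was not tested. AT5G11350 also overlaps AT5G11360 on its other side, and AT5G11360 did not pass the threshold (0.16 ± 0.13, adjusted p = 0.538).

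On the opposite side, AT5G11330 was not called. Its values were 6.66, 6.55, 6.34 and 6.54 on the arrays labelled NAA50-depleted and 6.75, 6.94, 6.87 and 6.85 on the wild type arrays. The groups did not overlap, with the labelled-depleted values all below the wild type ones, but the difference of -0.33 ± 0.11 (95% interval -0.58 to -0.08) had an adjusted p of 0.0762. Both immediate neighbours of NAA50 were thus above the array median on every array, and their differences had opposite signs.

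The next loci on the lower-numbered side were dim. YUC4, a flavin monooxygenase of auxin synthesis, had values of 1.70, 1.50, 1.44 and 1.47 on the arrays labelled NAA50-depleted and of 1.49, 1.94, 1.68 and 1.29 on the wild type arrays. The groups overlapped and all values were below the array median. SOAR1 (AT5G11310), a pentatricopeptide-repeat protein that acts against abscisic acid signalling, had values of 2.25, 2.32, 1.85 and 2.00 on the arrays labelled NAA50-depleted and of 2.35, 2.22, 1.95 and 2.22 on the wild type arrays, which overlapped as well. AT5G11290 had values of 1.75, 1.40, 1.51 and 1.77 on the labelled-depleted arrays and of 1.63, 1.71, 1.38 and 1.54 on the wild type arrays, likewise overlapping. CYC3B, the A-type cyclin also called CYCA2;2, had values of 1.76, 2.07, 2.32 and 2.26 on the arrays labelled NAA50-depleted and of 1.81, 1.82, 1.77 and 1.71 on the wild type arrays. Labelled-depleted replicate 1 lay within the wild type range and the other 3 above it. Over all 8 arrays the difference of CYC3B was 0.32 ± 0.14 (adjusted p = 0.153), and it passed only without labelled-depleted replicate 1, at 0.44 (adjusted p = 0.0417).

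On the higher-numbered side beyond AT5G11350, AT5G11360 had values of 1.51, 1.27, 1.51 and 1.53 on the arrays labelled NAA50-depleted and of 1.55, 1.02, 1.26 and 1.37 on the wild type arrays. AT5G11370 had values of 1.01, 1.47, 1.65 and 1.28 on the labelled-depleted arrays and of 1.37, 1.60, 1.41 and 1.58 on the wild type arrays. Both loci were below the array median throughout and their groups overlapped. DXPS3, a member of the family of 1-deoxyxylulose 5-phosphate synthases that start plastid isoprenoid synthesis, had values of 3.91, 3.86, 4.10 and 4.35 on the arrays labelled NAA50-depleted and of 4.43, 4.03, 3.88 and 4.02 on the wild type arrays. WIT1, which anchors proteins at the plant nuclear envelope, had values of 3.40, 3.23, 3.11 and 3.54 on the labelled-depleted arrays and of 3.09, 3.37, 3.25 and 3.11 on the wild type arrays. Both were above the array median, and the 95% intervals of their differences were -0.37 to 0.30 for DXPS3 and -0.17 to 0.40 for WIT1. Among the 10 members nearest to NAA50 on each side, 3 of 20 were called (15%, against 14.5% of all loci), AT5G11250 and AT5G11350 as higher and AT5G11420 as lower, and 11 of the 20 had a mean at or below the array median.

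**Figure D2:**
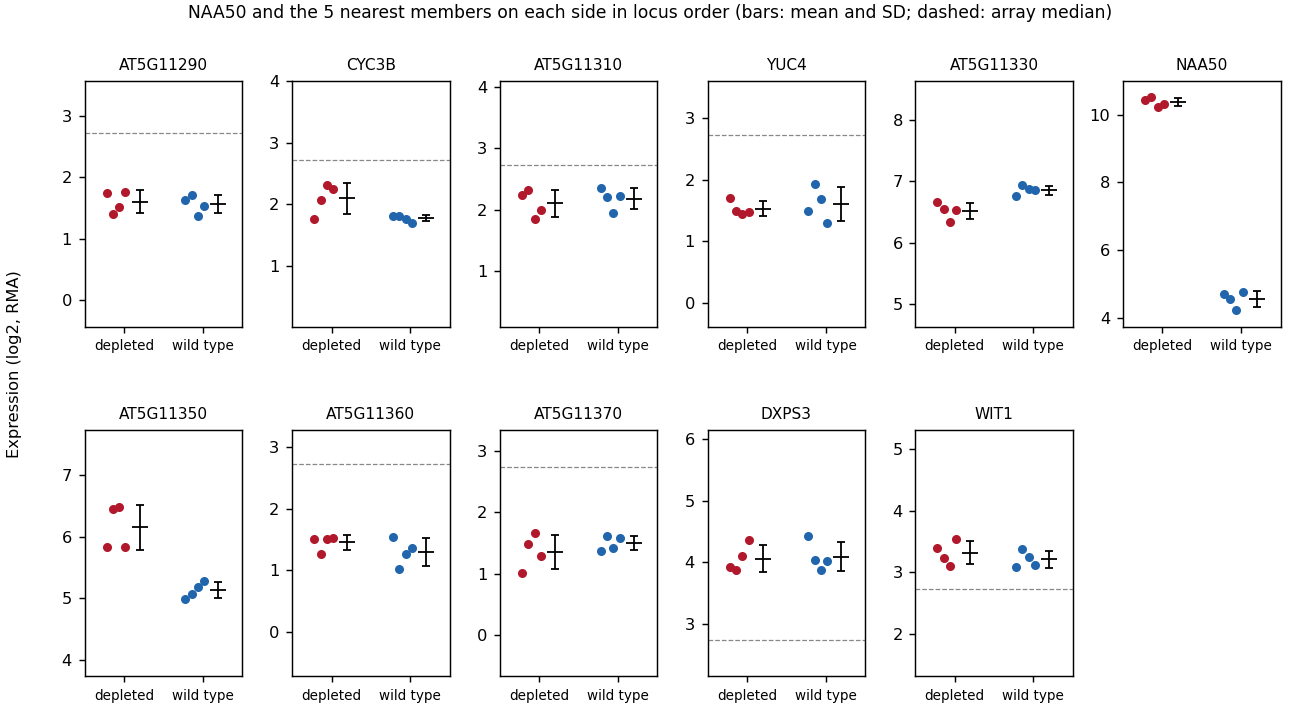
Expression (log2, RMA) of NAA50 and of the 5 nearest members on each side on each of the 4 arrays labelled NAA50-depleted (red) and the 4 wild type arrays (blue), with mean and SD bars and the array median as a dashed line. NAA50 differs by 5.83 and AT5G11350 by 1.02, AT5G11330 differs by -0.33 without passing the threshold, and the groups overlap in the other 8 panels.

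The largest increase was that of AT5G11070, a locus without a symbol in the gene table. Its values were 6.50, 6.55, 6.45 and 6.43 on the arrays labelled NAA50-depleted and 4.49, 4.93, 5.09 and 5.05 on the wild type arrays. The labelled-depleted values lay close together (SD 0.05) and stood well above all wild type values. The increase was 3.01-fold (adjusted p = 3.37e-05), a difference of 1.59 ± 0.14 (SE), and 1.88% of all loci had a larger difference in either direction. Close to it in locus order, AT5G11090 had values of 4.99, 5.05, 5.08 and 5.38 on the arrays labelled NAA50-depleted and of 4.70, 4.34, 4.50 and 4.45 on the wild type arrays. The groups did not overlap, and the difference was 0.63 ± 0.13 or 1.55-fold (adjusted p = 0.00713). AT5G11080, which lies between the pair, was dim and differed by 0.02 ± 0.14.

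AT5G11000, at the lower edge of the neighbourhood, had values of 6.65, 6.79, 5.78 and 6.37 on the arrays labelled NAA50-depleted and of 5.03, 5.37, 5.60 and 5.25 on the wild type arrays. Labelled-depleted replicate 3 came close to the highest wild type array, and the other 3 were well above it. The difference was 1.08 ± 0.21 or 2.12-fold (adjusted p = 0.00495). AT5G11250 had values of 6.28, 6.17, 5.80 and 6.34 on the labelled-depleted arrays and of 4.27, 5.49, 5.30 and 4.83 on the wild type arrays. Its wild type values were the most spread of all members (SD 0.54, against 0.24 in the labelled-depleted group), yet the groups did not overlap. The difference was 1.18 ± 0.24 or 2.26-fold (adjusted p = 0.00652).

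Near the upper edge, NOXY2, a gene found in Arabidopsis through mutants that do not respond to oxylipins, had values of 6.09, 6.13, 5.85 and 5.75 on the arrays labelled NAA50-depleted and of 5.39, 4.95, 4.91 and 5.06 on the wild type arrays. The groups did not overlap, and the difference was 0.88 ± 0.14 or 1.84-fold (adjusted p = 0.00169). In the gene table NOXY2 overlaps AT5G11640, which differed by -0.05 ± 0.12 and did not pass the threshold. AT5G11650, the locus after that, had values of 5.76, 6.34, 6.42 and 5.65 on the arrays labelled NAA50-depleted and of 4.91, 4.79, 4.66 and 4.78 on the wild type arrays. Its difference was 1.26 ± 0.18 or 2.39-fold (adjusted p = 0.000682), with replicates 2 and 3 of the labelled-depleted group as the higher pair, as at AT5G11350. All 7 higher members had a mean over the 8 arrays between 4.81 and 5.85.

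The largest decrease was that of TINY2, a transcription factor of the DREB branch of the ERF family. Its values were 2.10, 1.91, 1.78 and 2.19 on the arrays labelled NAA50-depleted and 3.74, 3.42, 3.35 and 3.98 on the wild type arrays. All labelled-depleted values were below the array median and all wild type values above it. The difference was -1.63 ± 0.16 (SE, n = 4 arrays per group), a level 3.09-fold lower (adjusted p = 6.11e-05). The lower group lies in the dim range, where the size of a fold is uncertain.

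AT5G11420, among the brightest members, had values of 6.39, 6.83, 5.96 and 6.92 on the arrays labelled NAA50-depleted and of 7.97, 7.74, 7.76 and 7.75 on the wild type arrays. The labelled-depleted arrays were spread (SD 0.44) while the wild type arrays lay close together (SD 0.11), replicate 1 being the highest of them. The difference was -1.28 ± 0.19 or 2.43-fold lower (adjusted p = 0.00103). AT5G11550 had values of 3.45, 3.94, 4.09 and 3.88 on the labelled-depleted arrays and of 4.82, 4.35, 4.71 and 4.61 on the wild type arrays, which did not overlap. Its difference was -0.78 ± 0.16, or 1.72-fold lower (adjusted p = 0.00649).

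TIM17-3, named for the translocase of the mitochondrial inner membrane, was the weakest call. Its values were 2.62, 2.62, 2.47 and 2.61 on the arrays labelled NAA50-depleted and 3.09, 2.95, 2.80 and 2.99 on the wild type arrays, near the array median in both groups. The groups did not overlap, and the difference was -0.38 ± 0.11 or 1.30-fold lower (adjusted p = 0.0417). The call was lost without any 1 of the 4 labelled-depleted arrays or of wild type replicates 1, 2 and 4 (lowest adjusted p 0.0687, highest 0.104), and with the replicate number as a block (adjusted p = 0.0783). The other 10 calls held without each of the 8 arrays in turn.

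**Figure D3:**
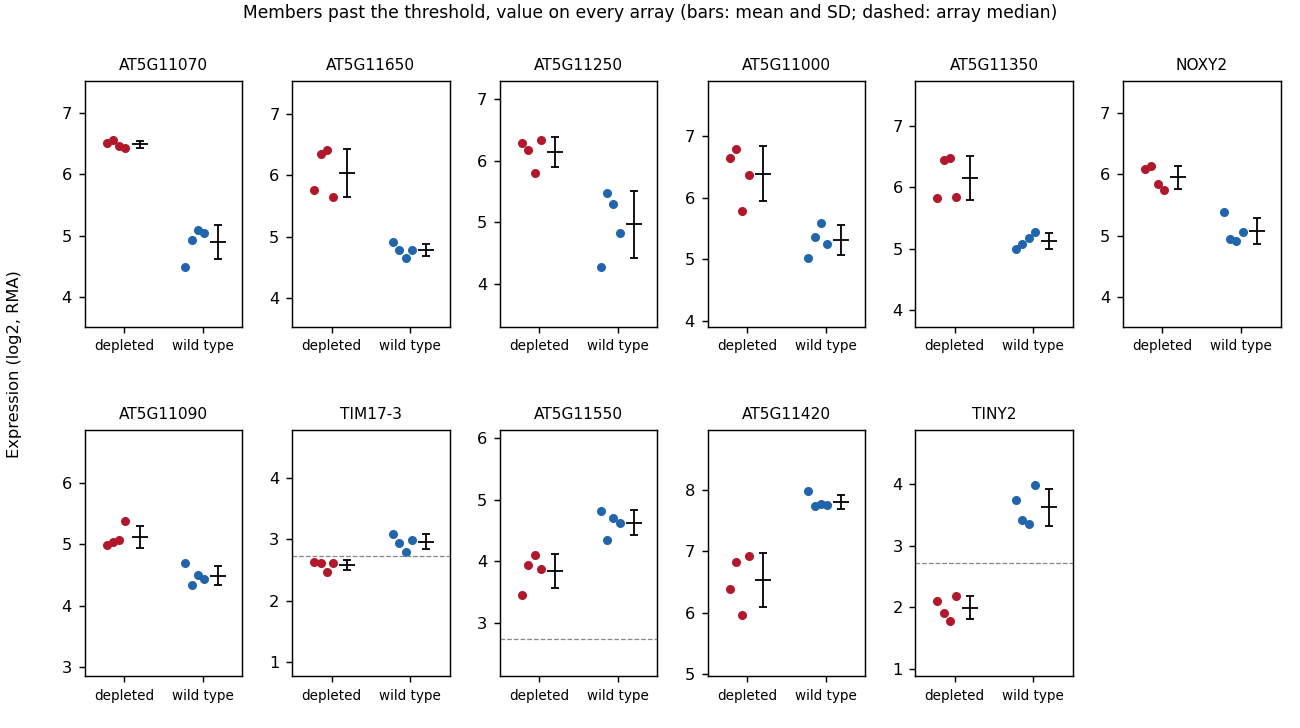
Expression (log2, RMA) of the 11 called members on each of the 4 arrays labelled NAA50-depleted (red) and the 4 wild type arrays (blue), with mean and SD bars and the array median as a dashed line where it falls in the panel. The groups do not overlap in any of the 11 panels, the TIM17-3 groups lie close to each other around the array median, and TINY2 has its labelled-depleted values below that median.

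In 18 of the 71 members (25.4%) the 4 values of one group all lay on one side of the 4 values of the other, as they did at 18.8% of all loci. These were the 11 called members and 7 that were not called. Of those 7 uncalled members, AT5G11680 was the only one with higher labelled-depleted values, at 0.31 ± 0.12 (adjusted p = 0.130). AT5G11330, AT5G11140, PPD5, AT5G11460, AT5G11480 and AT5G11500 had lower ones. PPD5, a PsbP-domain protein of the chloroplast, had values of 6.85, 6.79, 7.04 and 7.11 on the arrays labelled NAA50-depleted and of 7.43, 7.44, 7.19 and 7.26 on the wild type arrays. It came closest to the threshold from outside, at -0.38 ± 0.12 (adjusted p = 0.0582), and passed without labelled-depleted replicate 4 (-0.44, adjusted p = 0.0499). AT5G11480 had values of 6.20, 6.04, 6.14 and 6.26 on the labelled-depleted arrays and of 6.63, 6.34, 6.50 and 6.59 on the wild type arrays. It differed by -0.36 ± 0.11 (adjusted p = 0.0601) and passed without wild type replicate 2 (-0.41, adjusted p = 0.0489).

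The level of a member went with whether it was called. Of the 38 members with a mean above the array median, 11 were called (28.9%), where 26% of all loci above that median were. Of the 33 dimmer members 0 were called in limma, where 3.04% of all loci at or below the median were. An unadjusted p under 0.05 was found for 5 of the 33 (15.2%), a share that was not counted over all dim loci. Below the median on every array were 29 members. Over all members 25 (35.2%) had an unadjusted p under 0.05, as did 26% of all loci, and of the 14 among them that were not called 3 were higher and 11 lower. That split was not counted over all loci, of which 15347 had a difference below 0 and 12479 above 0. At least 2-fold differences made up 18.4% of the 38 brighter members and 8.85% of all brighter loci. The median absolute difference was 0.36 over the brighter members and 0.28 over all brighter loci.

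**Figure D4:**
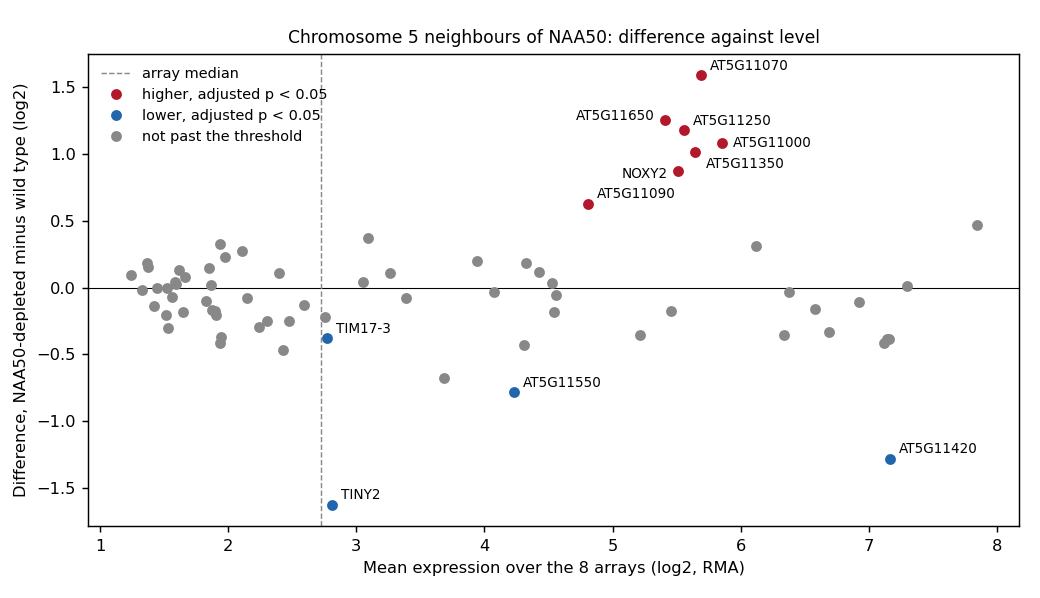
Difference between the arrays labelled NAA50-depleted and the wild type arrays (log2, vertical axis) against the mean expression over the 8 arrays (log2, horizontal axis) for the 71 neighbours, with the array median dashed. All 11 called members lie right of the median, and the 7 higher ones have means between 4.81 and 5.85.

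The members with the extreme levels did not pass the threshold. NADP-ME2, the cytosolic NADP-dependent malic enzyme, had the highest mean, with values of 7.84, 7.71, 8.37 and 8.40 on the arrays labelled NAA50-depleted and of 7.34, 7.68, 7.78 and 7.64 on the wild type arrays. Labelled-depleted replicate 2 lay within the wild type range, and the difference of 0.47 ± 0.18 had an adjusted p of 0.112, with 0.60 (adjusted p = 0.0483) after cyclic loess. ASP3, an aspartate aminotransferase, was next, with values of 7.28, 7.41, 7.18 and 7.35 on the labelled-depleted arrays and of 7.42, 7.32, 7.18 and 7.26 on the wild type arrays. The groups overlapped almost fully, and the 95% interval of the difference was -0.23 to 0.25. The lowest levels were those of AT5G11220, with values of 1.46, 1.00, 1.24 and 1.46 on the arrays labelled NAA50-depleted and of 1.26, 1.02, 1.19 and 1.29 on the wild type arrays, and of CID5, which carries a motif that binds poly(A)-binding protein. CID5 had values of 1.33, 1.38, 1.20 and 1.35 on the labelled-depleted arrays and of 1.55, 1.10, 1.38 and 1.30 on the wild type arrays. Both are at the dim end, with little room to fall, and whether their signal exceeds background is not known.

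Of the 30 members that were grouped by what they are known to do, 3 were called (10%), against 14.5% of all loci. The groups hold only loci named in the gene table. This cut took out called members of the planned groups: AT5G11350 (RNA), AT5G11650 (metabolism) and AT5G11250 (signalling and defence). The split therefore follows naming as well as role. Of 8 genes of transcription and chromatin, TINY2 was lower and 7 did not pass. These 7 were the homeodomain factor KNAT4 (-0.11 ± 0.13), the defence-linked homeodomain factor OCP3 (-0.43 ± 0.16, adjusted p = 0.107), MYB64, which acts in the female gametophyte (-0.25 ± 0.14), the cell division factor MYB3R-4 (-0.18 ± 0.13), SHN2 of the SHINE clade of cuticle regulators (-0.37 ± 0.22), the Polycomb-associated repressor EMF1 (0.37 ± 0.17) and the chromatin protein IBM2 (-0.13 ± 0.14). OCP3 passed without wild type replicate 2, at -0.55 (adjusted p = 0.0437). MYB64, MYB3R-4, SHN2 and IBM2 had means below the array median.

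Of 4 genes of RNA processing or binding 0 passed in limma, and 1, UAP56b, had an unadjusted p under 0.05. UAP56a and UAP56b encode closely related helicases of messenger RNA export, and whether the probes tell them apart was not examined. UAP56b had values of 3.10, 3.94, 3.24 and 3.09 on the arrays labelled NAA50-depleted and of 4.24, 4.20, 3.31 and 4.35 on the wild type arrays. Wild type replicate 3 lay among the labelled-depleted values, and the difference of -0.68 ± 0.25 (adjusted p = 0.102) passed without that array, at -0.92 (adjusted p = 0.0147), and without labelled-depleted replicate 2, at -0.88 (adjusted p = 0.0347). UAP56a, dim in both groups, differed by 0.27 ± 0.13 (adjusted p = 0.204).

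Of 3 genes of membrane traffic 0 passed in limma, and 0 had an unadjusted p under 0.05. TRS120, a subunit of the TRAPPII tethering complex, differed by -0.36 ± 0.17, the vacuolar SNARE VAMP713 by -0.22 ± 0.13 and the synaptotagmin SYTD by 0.13 ± 0.12. Of 7 metabolic genes, which also include the sucrose-phosphate synthase SPS2F, the adenine salvage enzyme APT5 and the gulonolactone oxidase homologue GulLO3, 0 passed in limma, 2 had an unadjusted p under 0.05 (GulLO3 and NADP-ME2) and the differences ran from -0.47 to 0.47. GulLO3 had a mean below the array median and differed by -0.47 ± 0.17 (adjusted p = 0.0963), and it passed with the replicate number as a block (adjusted p = 0.0432). The glutamate receptor-like channels GLR2.5 and GLR2.6 were dim and differed by -0.002 and -0.18. Of 3 organelle proteins NOXY2 was higher, TIM17-3 was lower and PPD5 did not pass. ALF4, required for lateral root formation, differed by 0.11 ± 0.12 and stands with CYC3B and WIT1 among 3 growth and nuclear envelope genes of which 0 passed in limma and 1, CYC3B, had an unadjusted p under 0.05. Of the 41 members in none of these groups, 6 were higher, 2 were lower and 33 did not pass, so that 8 were called (19.5%), against 14.5% of all loci. The 6 higher ones include AT5G11250, AT5G11350 and AT5G11650, which the planned groups had held.

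The neighbourhood was then set beside windows of 71 measured loci laid end to end along the rest of chromosome 5, which gave 87 windows. The neighbourhood held 11 called loci, and the other windows held 2 to 17 with a median of 11. More loci were called in 32 of the 87 windows, the same number in 12 and fewer in 43. Higher loci numbered 7 in the neighbourhood and 0 to 12 elsewhere (median 5), and lower loci numbered 4 in the neighbourhood and 1 to 11 elsewhere (median 5). For called loci that differed at least 2-fold, the neighbourhood's count of 7 was exceeded in 3 windows and equalled in 2, against a range of 0 to 9 and a median of 3. Without wild type replicate 1 that count was 4, but the other windows are not given here without that array, so the neighbourhood's place is not known there. These places in the order of windows are a description and carry no test.

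The median difference of the neighbourhood, -0.05, lay within the range of -0.12 to 0.04 over the other windows, 73 of which had a higher median and 14 a lower one. Its median absolute difference of 0.20 was exceeded in 21 of 87 windows. The neighbourhood resembled the other windows in level, with 38 loci above the array median against 19 to 52 elsewhere (median 36). Over the 87 windows the number called and the number above the array median had a Pearson r of 0.42 and a Spearman rho of 0.38, given as a description of windows that share the same 8 arrays. The window just below the neighbourhood in locus number held 11 called loci, 1 of them at least 2-fold, and the window just above it held 13, of which 4 were at least 2-fold. The 2 loci just outside at the lower edge, AT5G10980 (0.30 ± 0.13) and AT5G10990 (-0.04 ± 0.12), did not pass, nor did AT5G11700 (-0.17 ± 0.11) and AT5G11710 (-0.12 ± 0.11) at the upper edge.

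**Figure D5:**
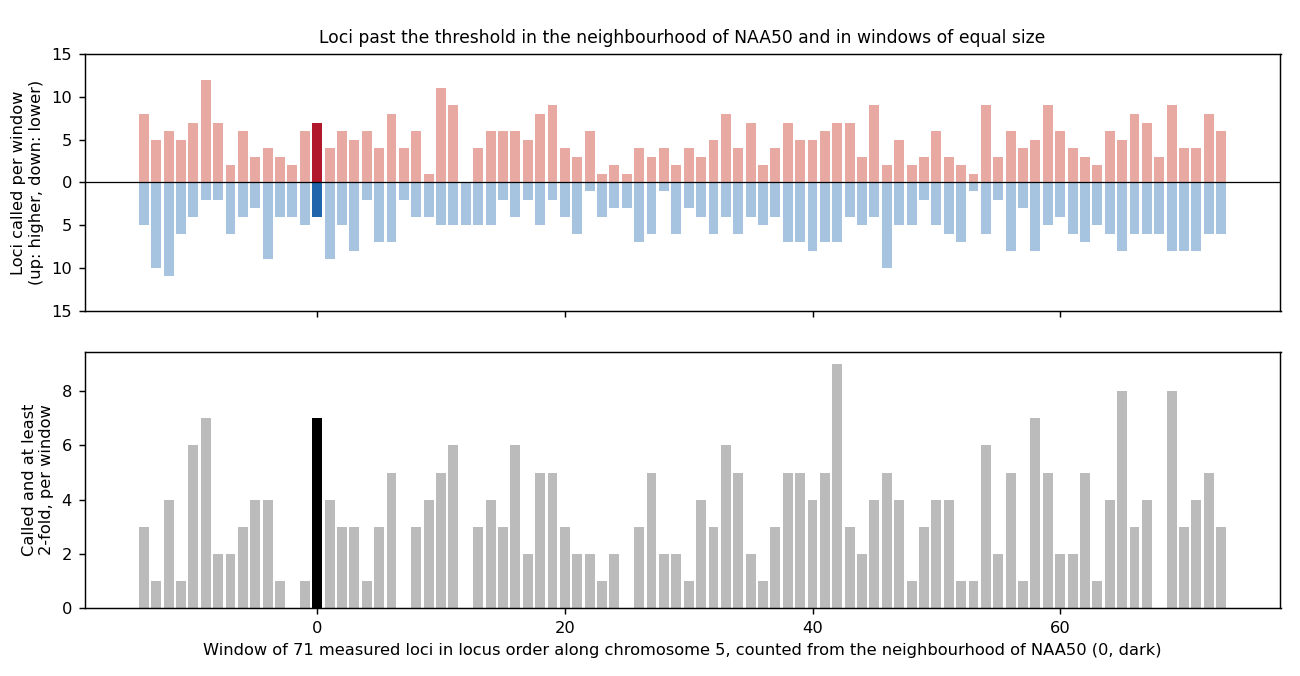
Loci called per window of 71 measured loci along chromosome 5, higher ones upwards and lower ones downwards (top), and called loci that differed at least 2-fold (bottom), with windows counted from the neighbourhood of NAA50 (0, dark bars). The neighbourhood's 7 higher and 4 lower loci lie within the ranges of the other 87 windows, and its 7 at least 2-fold loci are exceeded in 3 of them.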

How the data were processed

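Rosette leaf RNA of 8 samples was measured on Affymetrix arrays after conversion to biotin-labelled cDNA, per the labels' protocols. The authors deposited 1 RMA expression value per locus and array, per the submitters' processing notes. The log base of the deposited values is not recorded, and they were read as log2, the scale RMA returns. The sources used here do not give the RMA version, chip definition or genome build. Sorted values were identical on all 8 arrays, so a shift of all transcripts together cannot be seen. Locus identifiers were matched to the TAIR10.1 gene table for symbols and neighbours only, and 27241 of 27826 loci matched.

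Members were all loci from AT5G11000 to AT5G11690 except NAA50 and HY5. Groups came from the sample titles. Group was the single term of a linear model that limma 3.58.1 in R 4.3.3 fitted to all 27826 loci. No filter on dim loci was used, p-values were two-sided, and the Benjamini-Hochberg adjustment ran over all loci with a threshold of 0.05. The fit was tested on simulated data. Windows of 71 measured loci were laid end to end on chromosome 5, outwards from the members, and 113 loci at its ends were left over. The members, gene groups and windows were chosen with earlier results of these data known. Values on every array are given for called members, the 5 nearest on each side of NAA50, the 2 highest and 2 lowest in level and the 2 nearest outside the threshold, and any other member may be named. Role groups were cut to loci named in the gene table by symbol or synonym, with IBM2, CID5 and ALF4 added after the files were read. The cut removed the called members AT5G11250, AT5G11350 and AT5G11650.

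The alternatives tried were a block for the replicate number, 3 normalizations, a filter that dropped dim loci (those exceeding the 25th percentile on fewer than 4 arrays), eBayes with trend and robust, array weights, treat at a log2 change of 0.25, an adjusted p of 0.01, each array left out in turn, and other windows. Of the normalizations, only cyclic loess could change a result. Quantile normalization and median centring could not, because the sorted values were already identical on every array. Correlations between deviations of same-numbered arrays were -0.05, 0.02, -0.03 and 0.04, so the numbers were not taken as pairs. The number of arrays limits the precision. Separate plants per array are not stated in the labels, and the p-values therefore cover only the spread between these arrays, which may be technical.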

Additional observations from a re-analysis of the deposited data

Results flagged for a closer look

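In 11 of 146 groups of 4 arrays examined, each of the 71 members, NAA50 and HY5 in either genotype, 1 array lay far from the other 3. Chance alone marks about 1 in 20 groups. Of the called members, AT5G11420 was at 7.97 on wild type replicate 1, against 7.74 to 7.76 on the other 3, and TIM17-3 was at 2.47 on labelled-depleted replicate 3, against 2.61 to 2.62. UAP56b was at 3.31 on wild type replicate 3, against 4.20 to 4.35 on the other wild type arrays, and its difference passes the threshold only when that array or labelled-depleted replicate 2 is left out.

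Among the arrays labelled NAA50-depleted, VAMP713 was at 2.99 on replicate 3 (others 2.48 to 2.56), AT5G11230 at 2.85 on replicate 1 (2.32 to 2.34), AT5G11360 at 1.27 on replicate 2 (1.51 to 1.53) and IBM2 (AT5G11470) at 2.75 on replicate 4 (2.42 to 2.46). Wild type replicate 1 was the array apart for AT5G11410 at 1.62 (others 1.81 to 1.85), AT5G11425 at 2.05 (1.79 to 1.81) and AT5G11620 at 2.52 (1.78 to 1.89). AT5G11570 was at 1.55 on wild type replicate 4 (others 1.94 to 2.02).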

How the results depend on the processing

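The number of called members was 9 to 12 at every setting that used all 71 members. Quantile normalization and median centring could not change it, because the sorted values were identical on every array, so they add nothing to its stability. Without single arrays it was 10 to 12, with 7 to 8 higher and 3 to 5 lower. That is 14.1% to 16.9% of the members, where 11.7% to 13.2% of all loci were called. The replicate block called 15.5% of the members and 12.7% of all loci. Restricted to the 10 measured loci on either side of NAA50 the number called was 3 of 20, with 2 higher and 1 lower, because fewer loci were counted. The count at 2-fold was 4 to 7 without single arrays. With the replicate number as a block 11 members were called, 10 of them shared, with TIM17-3 lost and GulLO3 gained (adjusted p = 0.0432), and the block changed no other member's call. Same-numbered arrays did not deviate together, and 1 of 4 labelled-depleted arrays correlated best with its own number. The median difference was -0.0024 after cyclic loess, 0.037 over the 10 loci on either side, and -0.06 to -0.02 without single arrays. The share of windows with at least as many calls was 50.6%. It was 6.90% with treat at a log2 change of 0.25, where 9 members (12.7%) and 6.87% of all loci were called, and 18.4% to 49.4% without single arrays. Except under treat and without labelled-depleted replicate 1 or 2 or wild type replicate 2 or 3, it stayed within 1.5 times of 50.6%. TIM17-3 was also lost after cyclic loess, with a trended and robust variance, with treat and at an adjusted p of 0.01, and AT5G11090 with treat (adjusted p = 0.0856). PPD5 and AT5G11500 passed with a trended and robust variance (adjusted p = 0.0392 and 0.0436). Differences near 0 turned sign after cyclic loess for KNAT4 (0.015), DXPS3 (0.027), AT5G11580 (0.077), AT5G11640 (0.013) and AT5G11660 (0.0018) and with array weights for CID5 (0.00041). None of these members was called in limma at any setting. Turned by leaving out single arrays, and likewise never called, were AT5G11027 (-0.19 to 0.044), AT5G11080 (-0.055 to 0.12), AT5G11130 (-0.045 to 0.20), GLR2.5 (-0.066 to 0.046), AT5G11230 (-0.020 to 0.21), AT5G11240 (-0.022 to 0.12), AT5G11280 (-0.10 to 0.12), AT5G11290 (-0.022 to 0.11), AT5G11310 (-0.16 to 0.0088), YUC4 (-0.18 to 0.040), DXPS3 (-0.13 to 0.080), AT5G11425 (-0.017 to 0.081), CID5 (-0.095 to 0.053), ASP3 (-0.028 to 0.050), AT5G11580 (-0.088 to 0.034) and AT5G11660 (-0.10 to 0.11). The causes of these changes were not tested. Signal over background is not shown in the deposited values, so for the 33 members at or below the array median neither a change nor its absence can be read with confidence.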

Other observations

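The longest run of one sign among the neighbours was 9 members, AT5G11430 to AT5G11510, all with lower means on the arrays labelled NAA50-depleted. Over these 9 members the differences ran from -0.42 to -0.02. None of these was called in limma, and PPD5, AT5G11460, AT5G11480 and AT5G11500 among them had groups that did not overlap and an unadjusted p under 0.05. Of all loci, 18.8% had groups that did not overlap and 26% had an unadjusted p under 0.05. The gene models of PPD5 and AT5G11460 overlap, and how far signal is shared between them was not tested. The stretch was picked after the values were seen and carries no test. The rest of chromosome 5, 6290 loci, held 22 runs at least as long, the longest of 13 loci. Together these runs covered 221 of its loci.

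According to the TAIR10.1 gene annotation, 9 pairs of gene models overlap among these loci and NAA50, and 3 pairs include a called member. Those 3 are AT5G11350 with NAA50, AT5G11350 with AT5G11360, and NOXY2 with AT5G11640. The overlapping partners AT5G11360 (0.16 ± 0.13) and AT5G11640 (-0.05 ± 0.12) did not pass the threshold.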
